A study of Homo sapiens with 28 samples.

Results

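NB4, a human acute promyelocytic leukaemia line, was compared with and without knockdown (KD) of RBFOX2 by m6A methylated RNA immunoprecipitation sequencing of chromatin-associated RNA (caRNA). The comparison was defined by its labels. It took the 3 NB4 RBFOX2 KD and the 3 NB4 Control immunoprecipitation (IP) libraries, 6 of the 28 samples of the series and of the 14 that came with a peak list. Both groups carried a short hairpin RNA (shRNA) delivered by lentivirus, directed against RBFOX2 in KD cells and non-targeting in Control cells. The time of harvest was not given, and which of the study's RBFOX2 shRNAs was used for these libraries was not stated. The cells came from 1 line, so the p-values measure the spread between these libraries, which may be technical. Input libraries are not analysed here. A peak reports enriched IP reads, so more RNA from a gene and more methylation of that RNA cannot be told apart.

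N6-methyladenosine (m6A) is written on nascent RNA by a complex built around METTL3 and METTL14, with RBM15 among its adaptors, is removed by FTO and ALKBH5, and is read by proteins such as YTHDC1. RBFOX2 is an RNA-binding protein best known as a splicing regulator that recognises the word GCAUG. On chromatin, m6A on promoter and intronic RNA has been linked to the silencing or activity of the locus, and the study asks whether RBFOX2 takes part in that control and in the block to myeloid differentiation.

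Overlapping peaks of the 6 lists on chromosomes 1 to 22 and X were merged strand by strand into 52663 regions. A region listed in all 3 KD libraries and in no Control library is called gained, and one listed in all 3 Control libraries and in no KD library lost. There were 1936 gained regions, 3.68% of all regions, and 321 lost regions, 0.610%. A further 18123 regions were listed in all 6 libraries, and 32283 in other combinations. The strength of a peak is given as its percentile, the percent of peaks of the same list whose -log10 q-value it reaches or exceeds, because q-values scale with depth.

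The lists were not of equal size. Control libraries 1, 2 and 3 listed 29511, 31899 and 33400 peaks, and KD libraries 39707, 37622 and 36697. The depths recovered from the lists were 10.8, 14.1 and 17.2 M (mega-reads) in Control and 21.9, 18.6 and 16.8 M in KD, given as effective reads, so depth moved with the group except in Control 3 and KD 3. When each list was held to its 29511 strongest peaks, the counts became 871 gained and 690 lost. Only 661 of the 1936 gained regions (34.1%) and 217 of the 321 lost ones (67.6%) kept their call, and the counts of gained and lost regions are not compared with each other in what follows.

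The sequences below are the 151 bases around the summit of regions that stood high in each set, with capitals marking the m6A context: an A or G before the methylated A, preceded by A, G or T, and followed by C and then A, C or T. They are shown because base composition differed between the sets: A made up a median of 36.4% of the bases of gained windows and 21.2% of lost ones. The letters are those of the hg38 reference on the strand of the peak, with T for U.
Lost, IRX5 promoter, chr16:54930409-54930559 (plus strand): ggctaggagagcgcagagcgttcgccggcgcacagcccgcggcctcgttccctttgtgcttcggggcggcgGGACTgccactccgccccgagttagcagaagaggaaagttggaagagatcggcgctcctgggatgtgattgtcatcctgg
Lost, INHBA coding exon, chr7:41690117-41690267 (minus strand): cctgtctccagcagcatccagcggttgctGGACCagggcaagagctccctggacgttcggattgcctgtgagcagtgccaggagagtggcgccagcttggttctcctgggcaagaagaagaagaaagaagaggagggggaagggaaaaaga
Lost, C7orf50 intron, chr7:1026268-1026418 (minus strand): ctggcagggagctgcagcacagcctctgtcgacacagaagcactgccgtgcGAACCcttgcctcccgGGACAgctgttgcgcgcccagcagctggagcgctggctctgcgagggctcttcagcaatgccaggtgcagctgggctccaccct
Gained, C7orf50 intron, chr7:1114052-1114202 (minus strand): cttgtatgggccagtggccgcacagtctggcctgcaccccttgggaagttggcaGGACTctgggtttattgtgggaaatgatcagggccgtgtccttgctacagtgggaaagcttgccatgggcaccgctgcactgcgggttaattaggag
Gained, MDN1 coding exon, chr6:89662150-89662300 (minus strand): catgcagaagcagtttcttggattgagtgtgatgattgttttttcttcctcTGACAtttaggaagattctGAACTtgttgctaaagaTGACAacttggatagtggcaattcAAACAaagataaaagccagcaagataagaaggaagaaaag
At least 1 such context was found in 97.7% of gained, 93.1% of lost and 94.8% of all regions, on the strand of the peak and within 75 bases of the summit. The most efficient form, GGACU, was found in 20.2% of gained, 26.5% of lost and 22.2% of all regions. The RBFOX2 word GCAUG was found in 14.4% of gained, 11.5% of lost and 13.4% of all regions, close to its background in both sets.

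Gained regions lay mostly in introns. An intron held the summit of 1164 of 1936 gained regions (60.1%, 95% Wilson interval 57.9 to 62.3%), of 72 of 321 lost regions (22.4%, 18.2 to 27.3%) and of 4689 of the 18123 regions found in all 6 lists (25.9%). Introns held 41.1% of all regions and 48.7% of those listed in other combinations. Intervals cover counting error only, since regions of a gene are not independent. Of all 21644 intronic regions, 5.38% were gained and 0.333% were lost. Intergenic regions also had a high share gained, 6.27% of 2426.

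Exons and promoters held fewer of the gained regions. Coding exons took 5.79% of gained regions, 17.4% of lost regions, 24.5% of those in all 6 lists and 14.7% of all regions. Promoters, read here as 1 kb upstream to 100 bases downstream of a transcript start on the same strand, took 8.83%, 15.3%, 18.2% and 15.7%. The lost share of promoters was thus near that over all regions, and the lost share of coding exons was above it.

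**Figure D1:**
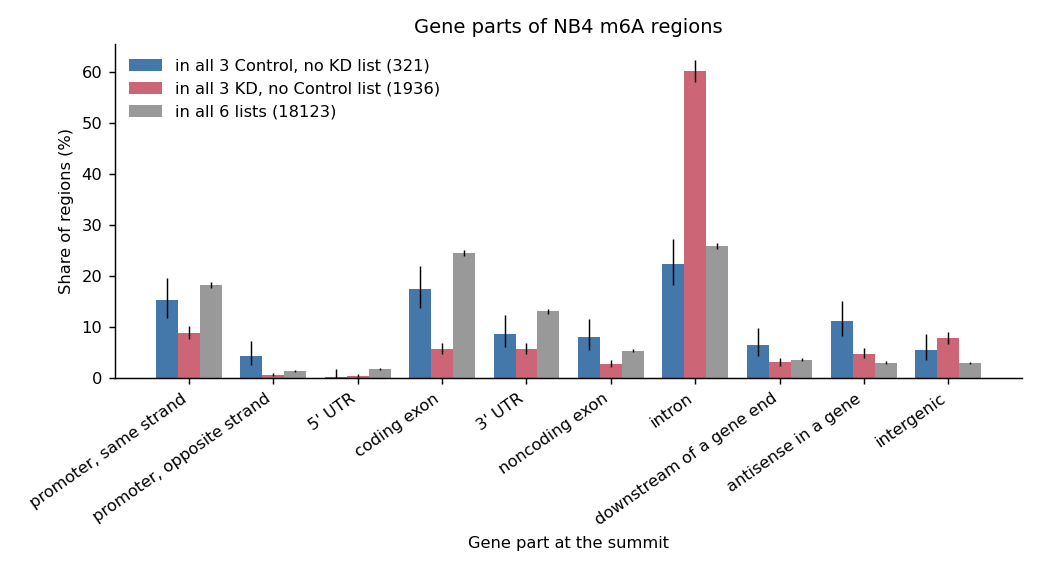
Share of regions (percent, y axis) whose summit fell in each gene part (x axis), for lost, gained and all-6-list regions of NB4. Bars are shares and lines are 95% Wilson intervals, and introns hold 60.1% of gained regions against 22.4% of lost ones.

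Transcripts that run against or past annotated genes held a larger share of the lost regions than of the gained ones. Antisense regions inside genes made up 11.2% of lost regions (36, interval 8.21 to 15.1%), 4.80% of gained regions and 3.06% of those in all 6 lists. Upstream antisense regions at promoters made up 4.36% of lost and 0.620% of gained regions, and regions within 5 kb downstream of a gene end 6.54% and 3.10%. Over all regions the shares were 4.02% antisense inside genes, 1.51% upstream antisense and 3.98% downstream. Protein-coding genes were the host or neighbour of 75.7% of lost and 76.1% of gained regions, against 81.1% of all regions. For lncRNA genes the shares were 12.8% and 13.2%, against 11.02%. Pseudogenes held 4.98% of lost regions (16, a small count), 2.53% of gained regions and 2.64% of all regions. Gene type thus separated lost from gained regions less than gene part did.

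Base composition moved with the set. The median GC content of the summit window was 41.1% in gained regions (quartiles 35.8 and 49.0%), 60.3% in lost regions (54.97 and 65.6%) and 54.3% in regions of all 6 lists. Over all regions it was 51.0%. Of regions with up to 35% GC, 9.98% were gained and 0.0570% lost, whereas of regions above 65% GC, 0.865% were gained and 1.34% lost. The same order held among introns alone, with medians of 40.1% in gained and 57.3% in lost regions. GC content also differs with gene part, and its part in the gains and losses was not tested. Among regions between 45 and 55% GC, 3.46% of intronic regions and 0.806% of coding exon regions were gained. Intergenic regions (4.63%) and antisense regions inside genes (4.16%) had higher gained shares than introns in this range. Coding exons had the lowest share of all gene parts.

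**Figure D2:**
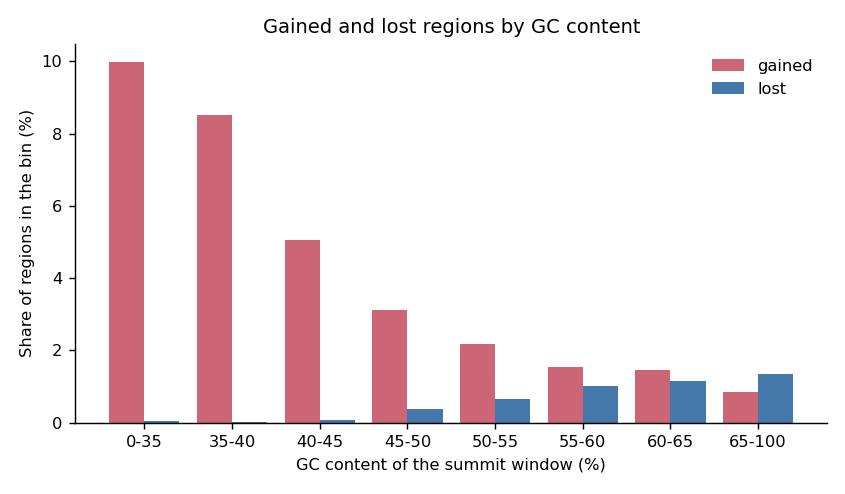
Percent of regions that were gained or lost (y axis) in bins of GC content of the summit window (x axis). The gained share falls from 9.98% in the lowest bin to 0.865% in the highest, and the lost share rises to 1.34%.

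Long genes carried more of the gained intronic regions. With intronic regions divided into 5 bins of near-equal size by gene length, the gained share was 3.28% in genes up to 39.2 kb, then 4.57%, 5.43% and 6.19%, and 7.42% in genes over 254 kb, while the lost share went from 0.508 to 0.185%. The median GC content of these bins fell from 53.0 to 43.0% at the same time, and the part of GC content in this order was not tested. The first intron held 24.5% of gained, 25.9% of lost and 27.2% of all regions that lay in an intron of the canonical transcript.

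At the level of whole libraries, the share of peaks with an intronic summit was 28.5%, 30.2% and 34.1% in Control and 39.2%, 39.0% and 36.9% in KD, so every KD library lay above every Control library. The means were 30.9 ± 2.86% and 38.3 ± 1.30% (SD, n = 3 each), a difference of 7.41 percentage points (two-sided exact permutation p = 0.1, the smallest that 3 against 3 allow, adjusted p = 0.144 over 13 measures). Control 3 and KD 3, the pair of nearly equal depth, stood at 34.1 and 36.9%. Their lists differ in length, however, and the depth of Control 3 is the least certain, because its pileups were not whole and were treated as rescaled. The coding exon share ran the other way at 20.6 ± 0.873% in Control and 17.5 ± 0.482% in KD (p = 0.1 by the exact test), and the groups did not overlap.

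The promoter share was 18.7%, 17.9% and 15.9% in Control and 15.2%, 15.3% and 16.02% in KD. Control 3 lay below KD 3, so the groups overlapped (difference -2.01 percentage points, exact permutation p = 0.2). The mean GC content of summits was 54.5%, 54.1% and 52.2% in Control and 50.6%, 50.4% and 51.3% in KD, without overlap (exact p = 0.1). The GCAUG share of summits was 13.2 ± 0.224% in Control and 13.2 ± 0.214% in KD (exact p = 0.8).

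**Figure D3:**
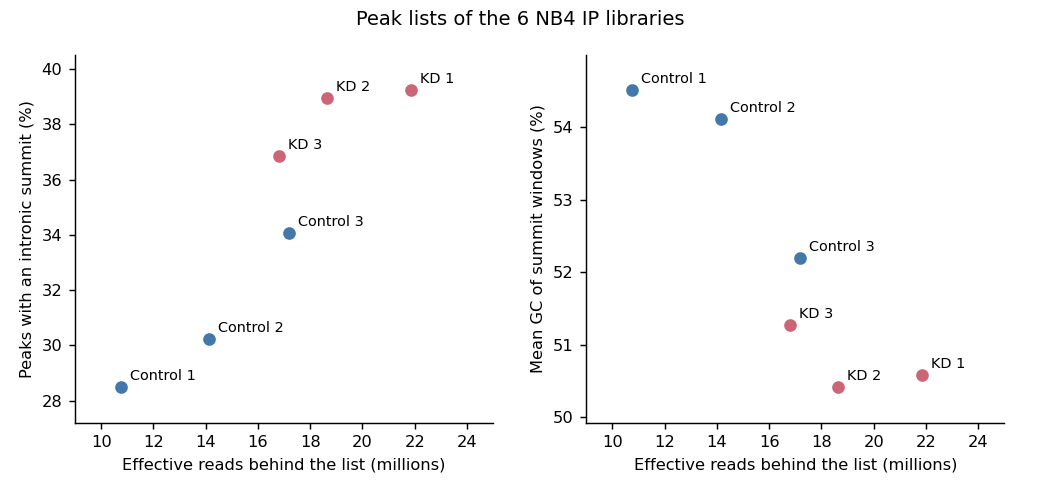
Share of peaks with an intronic summit (left, percent) and mean GC content of summit windows (right, percent) against the effective reads behind each list (M), 1 point per NB4 library. KD 3 (36.9% intronic) and Control 3 (34.1%) lie at nearly the same depth, and the other Control libraries are shallower than every KD library.

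The strongest gained regions reached high ranks in all KD lists. They were headed by an RNA on the minus strand, antisense within ANKRD7 (chr7:118271389-118272307), at percentiles 90.0, 87.3 and 87.9 in KD 1, 2 and 3. A region just downstream of the lncRNA gene LINC01711 followed (chr20:58635440-58635913) at 89.6, 90.8 and 82.0, and one in a coding exon of GAS8, a subunit of the ciliary dynein regulatory complex, at 87.9, 86.7 and 81.8 (chr16:90031258-90031430). None of these had a peak in any Control list.

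MDN1, an AAA ATPase of ribosome assembly, had a gained coding exon region at 71.7, 84.5 and 80.8 (chr6:89662147-89662318). PER2, a repressor of the circadian clock, had one in intron 4 of 22 at 76.0, 77.6 and 80.3 (chr2:238273141-238273334). The scaffold protein gene IQGAP1 had one in a coding exon at 76.7, 70.7 and 79.9 (chr15:90390658-90390831). ATOSA and PDXDC1 gained promoter regions with means of 77.7 and 74.7, and C7orf50, CCDC26, PHF14 and NFX1 gained intronic regions with means from 71.2 to 74.9.

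The strongest lost region lay at position -381 relative to a transcript start of IRX5, a homeobox transcription factor gene (chr16:54930364-54930625), at percentiles 71.9, 71.5 and 68.0 in Control 1, 2 and 3. An intronic region of MRPL23, a mitochondrial ribosomal protein gene, followed at 74.6, 67.0 and 61.9 (chr11:1972719-1972925). INHBA, which encodes the activin A subunit of the TGF-beta superfamily, lost a coding exon region at 76.8, 63.1 and 56.9 (chr7:41690000-41690456). The lost region in intron 2 of C7orf50 stood at 86.4 and 78.7 in Control 1 and 2 and lower, at 34.3, in Control 3 (chr7:1026249-1026408). C7orf50 thus held a lost and a gained region in the same intron, whose summit sequences are printed above.

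The other named losses lay mostly outside coding sequence. They were downstream of TMEM160 (mean 67.1), antisense in the potassium-chloride cotransporter gene SLC12A7 (61.7), on the opposite strand at the FAM174C promoter (58.2), in a coding exon of the MAP kinase phosphatase gene DUSP16 (56.4), and at the lncRNA genes or pseudogenes ENSG00000283317 (64.8), ENSG00000290833 (63.5), ENSG00000284614 (62.0) and ENSG00000223779 (57.8). Most members of both sets were weaker. The median percentile was 28.4 for gained and 26.9 for lost regions. It was 24.6 for regions in other combinations, 68.2 for regions of all 6 lists and 35.5 over all regions. A mean of 50 or more was reached by 225 gained and 21 lost regions, and by 17350 of all 52663 regions.

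On the strand of the gene, 1296 of the 12412 genes with any region had a gained region (10.4%) and 238 a lost one (1.92%). Of the genes with a gained region, 1048 had only 1 and 30 had 4 or more. The 21 genes with both were led by the lncRNA gene MIR646HG (4 gained, 1 lost), C7orf50, PEAK1, RUNX3 and DENND4A.

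The long lncRNA gene CCDC26 (1049.6 kb, chr8:128634199-129683770) had the most gained regions, 13, of which 12 were intronic. Of its 115 regions, 42, 47 and 64 were listed in Control 1, 2 and 3 and 99, 97 and 84 in KD, so the KD libraries listed more in every case. MIR3681HG, a long host gene of a microRNA, listed 3, 2 and 3 of its 18 regions in Control and 15, 14 and 11 in KD, with 8 gained. ZNF75D, a zinc finger gene on chromosome X, listed 4, 5 and 4 of 16 in Control and 15, 13 and 12 in KD, with 6 gained.

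As in CCDC26, Control 3 was the Control library nearest to KD in the next genes. The centriole gene SCLT1 listed 5, 11 and 20 of 35 regions in Control and 30, 28 and 29 in KD, and LRMDA 26, 27 and 43 of 73 in Control and 55, 57 and 51 in KD. GLIS3 (17 regions), TMTC2 (30), SCAPER (35), ZNF804A (35) and LINC01473 (16) each listed more regions in every KD library than in any Control library. These genes were chosen for their gained regions, so the counts describe them and were not tested. They differ from one another in K562, where LRMDA listed 0 regions in each of the 4 Control and KD libraries and CCDC26 between 28 and 35.

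**Figure D4:**
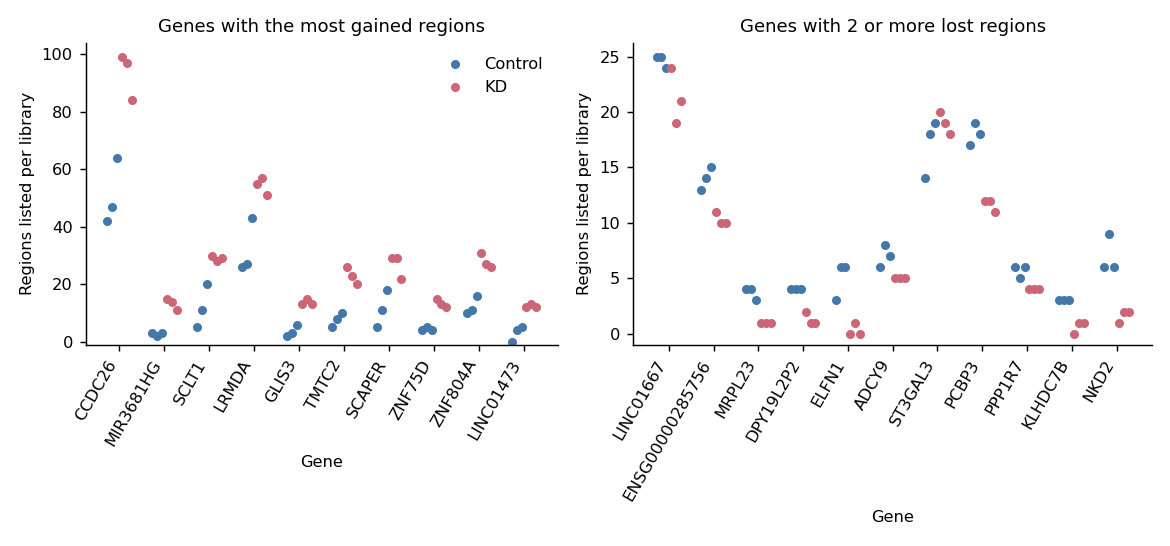
Number of regions listed per NB4 library (y axis) for the 10 genes with the most gained regions (left) and the 11 genes with 2 or more lost regions (right), 1 point per library. CCDC26 ranges from 42 to 64 in Control and 84 to 99 in KD, and NKD2 from 6 to 9 and 1 to 2.

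Of the 238 genes with a lost region, 11 had 2 or more. They were chosen for their lost regions, which the counts below include, so these counts describe them and were not tested. LINC01667 had 5 lost regions of 33, with 25, 25 and 24 listed in Control and 24, 19 and 21 in KD, so the groups met at 24. NKD2, a gene for an inhibitor of Wnt signalling, listed 6, 9 and 6 of 10 regions in Control and 1, 2 and 2 in KD. ELFN1, which encodes a synaptic membrane protein, listed 3, 6 and 6 of 7 regions in Control and 0, 1 and 0 in KD. In both genes the libraries did not overlap. KLHDC7B (3, 3 and 3 against 0, 1 and 1) and MRPL23 (4, 4 and 3 against 1, 1 and 1) showed the same order, and PCBP3, a poly(C)-binding protein gene, went from 17, 19 and 18 to 12, 12 and 11. None of NKD2, ELFN1, KLHDC7B, MRPL23 and PCBP3 had a region listed in any of the 4 K562 Control and KD libraries. ST3GAL3, with 2 lost regions, listed 14, 18 and 19 in Control and 20, 19 and 18 in KD, so its total did not separate the groups.

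RBFOX2 itself, chr22:35738736-36028824, had 3 regions. The intronic one found in all 6 lists (chr22:35838332-35838691) stood at percentiles 72.2, 6.00019 and 11.3 in Control and 29.4, 38.5 and 44.04 in KD. The groups overlapped, and a peak list does not measure the RNA level, so the depth of the knockdown was not checked.

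TGFB1, which encodes the cytokine TGF-beta 1 and is the gene the study follows, had 11 regions, of which 6, 8 and 8 were listed in Control and 10, 9 and 9 in KD. Of these, 5 were found in all 6 lists, and the promoter region at chr19:41352411-41353913 stood at 97.2, 99.1 and 98.3 in Control and 98.1, 98.8 and 94.9 in KD, with overlap. The neighbouring intronic region at chr19:41351805-41352323 stood at 82.6, 77.1 and 90.1 in Control and 96.6, 97.0 and 90.3 in KD, without overlap, and the other 3 overlapped. One intronic region, chr19:41323669-41323830, was gained at percentiles 52.8, 41.1 and 47.5. No TGFB1 region was lost. In the TGF-beta signalling list, 3 of 18 genes with a region had a gained one (TGFB1, SMAD3 in its 5' UTR and TGFBR1 in its 3' UTR) and 1, INHBA, a lost one. By region this was 3.13% gained and 1.04% lost, against 3.55 and 0.535% over all genes.

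The myeloid list held regulators of the lineage, granule protein genes and surface markers of mature cells. Of the 25 genes of this list with a region, 5 had a gained region (20.0%, against 10.4% of all genes) and 0 a lost one, and 7 of their 139 regions were gained (5.04%, against 3.55% of all regions on a gene's strand). ITGAM, the gene of CD11b, listed 2, 2 and 2 of 6 regions in Control and 5, 3 and 5 in KD. ITGAX, the gene of CD11c, listed 1, 1 and 1 of 8 in Control and 6, 4 and 7 in KD, with 2 gained in intron 14. In both genes every KD library listed more. They were named for their gained regions, which these counts include, and the KD lists are longer, so the counts were not tested.

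The gained ITGAM region had its summit at position -405 relative to a transcript start within the gene (chr16:31327531-31327771) at percentiles 66.7, 47.0 and 34.4. CSF3R, the granulocyte colony-stimulating factor receptor gene, gained a region at 70.2, 52.2 and 37.8, but listed 5, 5 and 5 regions in Control and 7, 4 and 6 in KD, with overlap. SPI1, the gene of the transcription factor PU.1, gained an intron 1 region at 38.6, 51.6 and 46.9, and RUNX1 2 intronic regions. Over the whole list, its share of listed regions was 0.276 to 0.309% in Control and 0.307 to 0.326% in KD, with overlap. Of its 49 regions present in all 6 lists, 10.2% had every KD rank above every Control rank, against 17.9% over all genes.

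Genes of the m6A machinery held both gained and lost regions. Of the 8 genes of the methyltransferase complex, all with a region, 1 had a gained region (12.5%, against 10.4% of all genes), ZC3H13 in a coding exon (13.7, 82.0 and 78.5), and 0 a lost one. Both erasers lost a 3' UTR region, ALKBH5 at 32.2, 58.6 and 41.1 and FTO at 42.8, 37.4 and 19.8 in Control. The readers YTHDC1 and IGF2BP2 each gained 1 intronic region, and IGF2BP3 gained 1 that lay 4302 bases downstream of the gene end. In KD 1, 2 and 3 the region stood at 42.8, 51.8 and 18.7 for YTHDC1 and at 55.8, 34.4 and 65.8 for IGF2BP3. The IGF2BP2 region lay near the bottom of the lists, at 3.66, 5.03 and 9.89. Over the 12 genes of the readers and erasers list, 2 of 81 regions were lost (2.47%, against 0.535% over all genes) and 3 gained (3.70%, against 3.55%). These counts are small and are not set apart from the shares over all genes. Polycomb repressive complex 2 genes (49 regions) and leukaemia genes described as m6A targets (78 regions) had 0 gained and 0 lost regions, counts too small to set apart from the 3.55% gained and 0.535% lost over all genes.

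Splicing regulators had 9 gained of 119 regions (7.56%, against 3.55% over all genes), in 6 of 29 genes (20.7%, against 10.4%), and 0 lost (0.535% over all genes). These counts are small and were not tested. QKI, PTBP2, CELF2 and MBNL3 gained theirs in introns, SRSF6 in a coding exon and SRSF11 at a promoter (25.7, 0.128 and 30.1). QKI had the strongest at 64.2, 39.0 and 65.5. The SRSF6 region ranked low, at 3.62, 1.34 and 34.7. Histone lysine methyltransferase and demethylase genes had 15 gained of 441 regions (3.40%, near the background), 3 of them in SMYD3, and 1 lost, in KMT2D. Genes named ZNF had 60 gained and 6 lost of 1553 regions (3.86 and 0.386%), also near the background. Nuclear long noncoding RNA genes had 5 gained of 100 regions (5.00%), in CYTOR, KCNQ1OT1 and FIRRE. Ribosomal protein genes had 2 gained of 38 regions and replication-dependent histone genes 2 of 16, with 0 lost in each, and counts this small are not set apart from the 3.55% gained and 0.535% lost over all genes.

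Regions present in all 6 lists allowed a test of rank that the choice of lost and gained regions did not use. The normal score of the rank was compared with limma over 18123 regions, and 0 passed an adjusted p of 0.05 (smallest 0.0734, called share 0%). The call depends on the setting, with 24 higher and 6 lower among regions of mean percentile 50 or more, and 8 and 2 with a variance trend. At an unadjusted p under 0.05 there were 3261, of which 2480 ranked higher in KD. The median shift of all regions was 0.13 on this score, and the KD lists are longer. Ranks were therefore also taken among the shared regions alone.

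On those ranks, all 3 KD libraries lay above all Control libraries in 11.1% of shared regions and below them in 12.5%, whereas on ranks in the whole lists the shares were 17.9 and 7.05%. Introns and intergenic regions lay above more often than below on both scales. Of 542 shared intergenic regions, 15.5% lay above and 10.7% below on ranks among shared regions, and 24.9 and 7.01% on ranks in the whole lists. Of 4689 shared intronic regions, 16.2% lay above and 7.66% below on ranks among shared regions, and 23.4 and 4.39% on ranks in the whole lists. Of 4448 shared coding exon regions, 9.40% lay above and 12.6% below, and 16.2 and 6.88% in the whole lists, so their direction depends on the scale. On the opposite strand of promoters, 5.95% of 252 lay above and 28.2% below, and 11.5 and 18.3% in the whole lists.

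**Figure D5:**
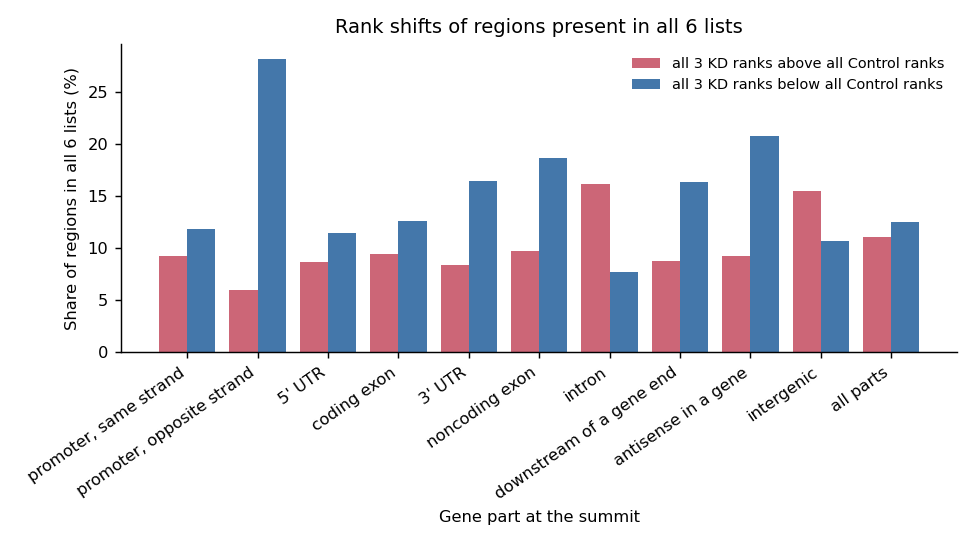
Percent of regions in all 6 lists (y axis) whose 3 KD ranks all lay above or all below the 3 Control ranks, by gene part (x axis), with ranks taken among these regions. Introns show 16.2% above and 7.66% below, and all parts together 11.1 and 12.5%.

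None of these regions passed the threshold, so the ones named next were picked after their values were seen, as the 2 largest shifts without overlap in each direction. A 3' UTR region of CRCP, a gene of an RNA polymerase III subunit, stood at 19.5, 1.73 and 0.195 in Control and 76.7, 65.4 and 68.5 in KD (limma difference 2.49 ± 0.45 SE, adjusted p = 0.0843). An intronic region of the lncRNA gene GMDS-DT stood at 2.49, 3.15 and 71.3 in Control and 93.8, 90.9 and 79.6 in KD, with Control 3 close to KD. In the other direction, an intronic region of SLC16A3, a lactate transporter gene, stood at 43.1, 65.7 and 34.02 in Control and 0.820, 0.393 and 24.7 in KD (-1.85 ± 0.49 SE, adjusted p = 0.14). An intronic region of RAB7A, a GTPase gene of late endosomes, stood at 14.2, 16.04 and 24.99 in Control and 2.26, 0.130 and 0.166 in KD.

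The gained and lost regions were looked up in K562, a chronic myelogenous leukaemia line whose Control and RBFOX2 KD libraries (n = 2 each) the rule did not use. Gained regions overlapped a peak in 39.4 and 41.7% of cases in K562 Control 1 and 2 and in 41.8 and 39.9% in KD 1 and 2. Lost regions did so in 30.2 and 33.6% in Control and 31.2 and 27.7% in KD. The difference of KD minus Control was 0.284 percentage points for gained and -2.49 for lost regions (exact permutation p = 0.667 each, 0.333 being the smallest possible for 2 against 2), and in both sets the groups overlapped. Of the 1936 gained regions, 613 were listed in all 4 of these K562 libraries and 980 in none. For the 321 lost regions these counts were 74 and 197. They were 11458 and 4926 for the 18123 regions in all 6 NB4 lists, and 6737 and 20307 for the 32283 in other combinations. Over the same 4 libraries, 40.4 to 44.8% of all merged NB4 regions and 66.3 to 69.3% of those in all 6 NB4 lists overlapped a peak. In HepG2, a hepatoma line, 21.7 and 26.3% of gained regions and 14.95 and 19.3% of lost regions overlapped a peak of the 2 wild-type libraries, against 29.5 and 34.4% of all merged regions. The intron share of K562 peaks differed by 0.607 percentage points between KD and Control against 7.41 in NB4 (test of the difference between lines by permutation within lines, p = 0.1, adjusted p = 0.26).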

How the data were processed

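Peak lists of 6 NB4 IP libraries were used, with 8 lists of K562 and HepG2 to look regions up. Per the labels and methods, the authors trimmed reads with Trimmomatic 0.39, aligned them to hg38 with HISAT2 2.1.0 and GENCODE release 29, split strands with SAMtools 1.9 and called peaks per library and strand with MACS2 at q under 0.01. The deposited fold (a ratio to the local background), -log10 p-value, -log10 q-value and score are the authors' values, and no table gave read counts. The pileup at each summit was solved from the fold and p-value, which gave effective reads. Pileups of NB4 Control 3 were whole at 3.16% of summits (tolerance 0.02) and were treated as rescaled. Gene parts came from GENCODE release 44, in the order same-strand promoter, coding exon, 3' UTR, 5' UTR, noncoding exon, intron, opposite-strand promoter, downstream, antisense, intergenic. Exact permutation tests were two-sided, adjusted by Benjamini-Hochberg, and limma 3.58.1 was used for ranks after a test on simulated data. Regions named are the 12 strongest of each set, the genes with most gained or at least 2 lost regions, up to 8 genes with both, up to 6 genes a list, RBFOX2 and TGFB1. Members and gene lists were chosen with earlier results of these data known. Alternatives were depth matching, equal list sizes, a -log10 q-value of at least 5, summit windows, at least 50% overlap, canonical transcripts, the replicate block and leaving out each library. The share of repeats at summits was not computed, because the reference used here has no repeat masking. Some summit sequences are not reported here.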

Additional observations from a re-analysis of the deposited data

Results flagged for a closer look

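The share of peaks antisense within genes moved differently in NB4 and in K562. It was 3.68%, 3.99% and 3.64% in NB4 Control and 3.53%, 3.40% and 3.56% in NB4 KD, a change of -0.275 percentage points, against 0.520 in K562, so that the lines differed by -0.795. This was flagged by the test of the difference itself, with labels permuted within each line over 120 arrangements (exact p = 0.0167, the smallest these arrangements can give, adjusted p = 0.217 over 13 measures). The change within NB4 had an exact permutation p of 0.1.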

How the results depend on the processing

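Counts of gained and lost regions depended on how the lists were made comparable, and their intronic shares moved less. Equal list sizes gave 871 gained and 690 lost regions. Depth matching on summit p-values kept 98.8 to 100% of peaks in each list, because 95% of summits lay far above the threshold, so it hardly thins a list. A higher cut after depth matching, at the 5th percentile of the shallowest list and chosen after seeing the data, gave 1181 gained and 494 lost regions. Summit windows gave 576 lost regions. Under these 3 settings introns held 56.9 to 62.0% of gained and 22.5 to 23.1% of lost regions. Leaving out 1 library moved the intronic share of gained regions between 56.98 and 62.99% and gave 2347 to 3702 gained regions (3702 without Control 3, 3510 without KD 3, 2940 without KD 2) and 446 to 718 lost ones (718 without Control 1, 591 without Control 2, 683 without Control 3, 535 without KD 1, 488 without KD 3).

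Among regions in all 6 lists, limma called 24 higher and 6 lower where the mean percentile was at least 50, and 8 and 2 with a variance trend, which was added after seeing the data. Leaving out 1 library gave 0 to 1 higher with the plain fit, and up to 613 higher and 39 lower when the variance trend was combined with leaving out Control 3. The other alternatives gave 0 in each direction. The intron share kept its direction in all alternatives (5.26 to 8.98 percentage points, the lowest with summits of 45 to 55% GC only). The GCAUG difference ranged from -0.0912 to 0.139 percentage points when 1 library was left out. It turned to -0.0847 without Control 3 and -0.0912 without KD 3, and the opposite-strand promoter share to 0.00268 with summits of 45 to 55% GC. The K562 difference for gained regions ranged from -0.878 to 1.45 percentage points when 1 library was left out.

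Replicate numbers did not pair the samples (correlations of deviations from the group means -0.063, -0.062 and -0.175). The replicate block gave p = 0.25 for the intron share by an exact paired test, the smallest that 3 pairs allow. It gave 0 rank calls and no other change of call. List length moved with the group, and depth did except in Control 3 and KD 3, which limits every count of gained or lost regions. The cause of these changes was not tested.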
